A study of Mus musculus with 3 samples.

Results

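The genes of the muscle acetylcholine receptor and of its assembly at the synapse were followed across 3 arrays of C2C12, a mouse myoblast line whose cells stop dividing and fuse into myotubes when serum is lowered. The group comprised 7 genes, namely the receptor subunit genes Chrna1, Chrnb1, Chrnd, Chrng and Chrne, the receptor kinase gene Musk and the scaffold gene Rapsn. Each was taken by its name in the scanner files and each had 1 probe, so that 7 of 23473 probes and 7 of 18355 gene names entered. C2C12-PR, the proliferating parent, was kept for 2 days in rich medium that contained 10% fetal bovine serum. C2C12-DF, the differentiating culture, was the same line kept for 2 days in poor medium that contained 2% horse serum. C2C12-W4-08, the Wnt4 clone, was a single subline that carries a Wnt4 plasmid driven by the CMV promoter, selected with blasticidin and kept for 2 days in the rich medium. All of these cells were C2C12 or derived from it, and neither nerve cells nor agrin were named in the labels. The question was how far the receptor genes followed differentiation in low serum and Wnt4 expression in rich medium.

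The acetylcholine receptor of skeletal muscle is a ligand-gated cation channel built from alpha, beta and delta subunits together with either a gamma or an epsilon subunit. Chrng encodes the gamma subunit of embryonic and denervated muscle, and Chrne encodes the epsilon subunit that takes its place in innervated adult fibres. Musk is the receptor tyrosine kinase that nerve-derived agrin activates through its co-receptor Lrp4, and rapsyn, the product of Rapsn, ties the receptors into clusters under the nerve terminal. Receptor subunit genes are switched on by the muscle transcription factors of the MyoD family, which bind E-boxes. In the nuclei under the synapse, factors of the Ets family act through the N-box, an element known from the epsilon and delta genes.

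Promoter windows of 250 bases before and 50 bases after the annotated start were in RefSeq (build GRCm38.p6) for 5 of the 7 genes, and not for Chrnd and Rapsn. The windows of Chrng and Chrne are shown because they belong to the exchangeable embryonic and adult subunits, and that of Chrna1 because it belongs to the subunit that both receptor forms share. They lie at chr1:87205561-87205860 on the plus strand for Chrng, at chr11:70619145-70619444 on the minus strand for Chrne and at chr2:73580289-73580588 on the minus strand for Chrna1. Capitals mark E-boxes, searched as CANNTG, and the N-box, searched as CCGGAA on both strands, and each window runs 5′ to 3′ along its gene.
Chrng: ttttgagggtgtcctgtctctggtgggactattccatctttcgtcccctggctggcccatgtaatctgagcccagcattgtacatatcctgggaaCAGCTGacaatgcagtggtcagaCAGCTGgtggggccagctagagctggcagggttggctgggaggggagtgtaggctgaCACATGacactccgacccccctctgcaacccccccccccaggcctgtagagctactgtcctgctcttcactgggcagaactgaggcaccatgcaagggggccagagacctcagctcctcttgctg
Chrne: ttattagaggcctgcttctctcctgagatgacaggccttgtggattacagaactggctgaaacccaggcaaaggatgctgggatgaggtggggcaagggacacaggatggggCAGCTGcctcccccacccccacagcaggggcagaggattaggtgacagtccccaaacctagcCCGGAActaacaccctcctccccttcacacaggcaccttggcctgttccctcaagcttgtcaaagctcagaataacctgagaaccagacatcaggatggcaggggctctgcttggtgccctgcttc
Chrna1: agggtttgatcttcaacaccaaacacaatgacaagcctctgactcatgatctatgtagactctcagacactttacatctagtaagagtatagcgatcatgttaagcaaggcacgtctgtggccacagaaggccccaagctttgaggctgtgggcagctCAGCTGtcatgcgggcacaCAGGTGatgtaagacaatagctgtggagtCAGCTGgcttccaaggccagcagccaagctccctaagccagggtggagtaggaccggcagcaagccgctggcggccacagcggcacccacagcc

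The Chrng window held 3 E-boxes, of which those starting at -155 and -132 from the start had the letters CAGCTG. The Chrna1 window held 3 E-boxes as well, with CAGCTG at -92 and -44 and CAGGTG at -73. The Chrne window held a single E-box, CAGCTG at -138, and was the only one of the 5 with an N-box, at -76. Musk had 3 E-boxes with CAGCTG at -68, whereas Chrnb1 had 3 with CAGGTG at -29 and no CAGCTG. Such letters are common. Of 32851 promoter windows of this length, 72.3% held an E-box, 17.6% held 3 or more, 16.3% held CAGCTG, 1.9% held it at 2 or more places, 20.2% held CAGGTG on either strand and 14.9% held the N-box. CAGCTG and CAGGTG are themselves E-boxes, so these shares overlap. The motifs were chosen after the windows had been read, and a match of letters is not a measured site.

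**Figure D1:**
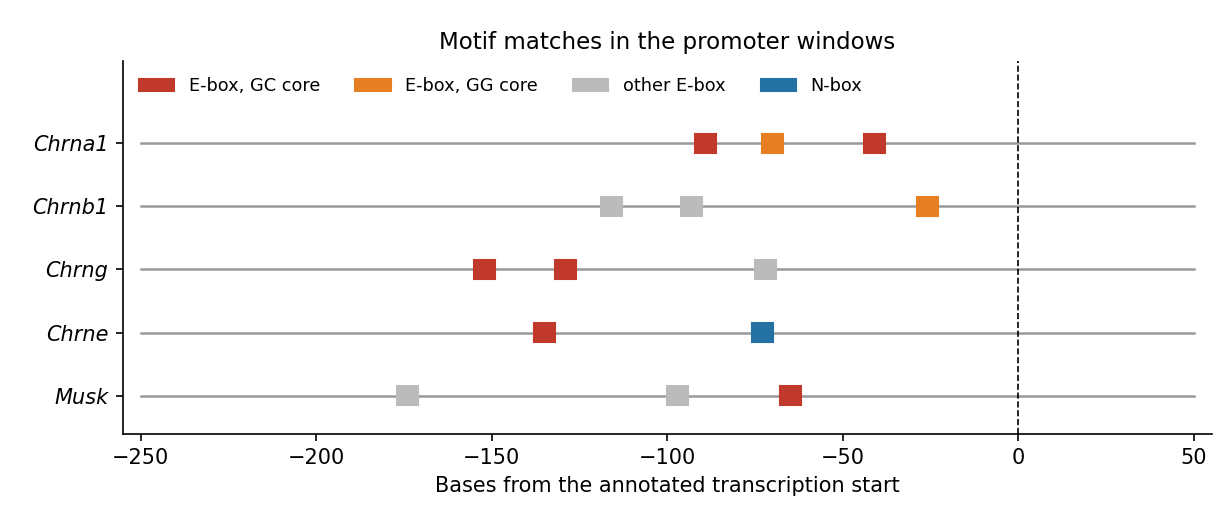
Positions of the motif matches in the promoter windows of the 5 genes found in RefSeq, in bases from the annotated transcription start (dashed line). Coloured blocks mark E-boxes with a GC or a GG core, other E-boxes and the N-box, and the single N-box lies in the Chrne window.

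Signals are spot medians minus the mean of 1750 blank spots, put on the scale of C2C12-PR by the median ratio between arrays, and a probe counted as detected above the blank mean plus 2 SD. There was 1 array for each condition. No error between samples could be estimated and no test was made, and a ratio of 2 served as a mark of size. The detected share was 71.8% of probes in the proliferating parent, 74.4% in the differentiating culture and 92.8% in the Wnt4 clone, with blank means of 20.4, 17.9 and 4.38 scanner units. Repeat spots of 3 controls, 24 spots each, gave SDs of the log2 ratio of 0.157, 0.101 and 0.091 for C2C12-DF. For C2C12-W4-08 the SDs were 0.519, 0.175 and 0.245. They cover technical spread within an array only. The medians of these controls ranged from 0.12 to 0.23 on the log2 scale in the differentiating culture and from -0.75 to 1.26 in the Wnt4 clone. The array of the Wnt4 clone belonged to another order of arrays than the other two, so its order, clone, selection and Wnt4 itself cannot be told apart. Wnt4, the transfected gene, had a signal of 115 in the Wnt4 clone and 4.63 in the differentiating culture, and was not detected in the proliferating parent. All 5 myoblast markers were detected on each array, Des among them with signals of 1337, 1954 and 911 in the proliferating parent, C2C12-DF and C2C12-W4-08.

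The embryonic subunit gene Chrng had the largest ratio of the 6 genes with a ratio in differentiation medium. Its signal was 28.7 in the proliferating parent, 229.8 in the differentiating culture and 23.5 in the Wnt4 clone. The differentiating culture thus stood 8.00-fold above the proliferating one, a log2 ratio of 3.0 that exceeded 99.7% of all 15918 probes detected on both arrays. A shift of both spots by 2 SD of the blanks would place it between 2.87 and 3.14. The Wnt4 clone stayed near the proliferating parent, with a log2 ratio of -0.29. That was within the largest control spot SD of 0.519 but beyond the others of 0.175 and 0.245. Around the Chrng spot the local background read 56, 209 and 22 scanner units, against array medians of 19, 21 and 10. Subtracting it gave a log2 ratio of 3.63 for C2C12-DF and 0.65 for C2C12-W4-08, so that the sign in the Wnt4 clone turned. In bulk RNA, more cells that express a gene and more RNA per cell cannot be told apart.

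The adult subunit gene Chrne was at the limit of the arrays. Its spot read 22 scanner units in the proliferating parent and 18 in the differentiating culture, below the detection limits of 26.3 and 22.2. In C2C12-W4-08 it read 8 against a limit of 5.99, which gave a signal of 1.56. That signal lay below the lowest detectable signals of 2.72 in the proliferating parent and 2.35 in the differentiating culture. In this setting neither a ratio nor a bound could therefore be given, and no difference of Chrne between the conditions was detectable. The deposited table listed Chrne at 1.48 in the differentiating culture and 4.91 in the Wnt4 clone and left it empty in the proliferating parent.

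Of the embryonic and adult subunit genes only the embryonic one thus had a ratio, and no exchange between them was measured. A normexp correction, which subtracts the local background, gives every spot a positive value and draws ratios near background towards no change, placed Chrng at 2.17 and Chrne at 0.08 in the differentiating culture on the log2 scale, a difference of 2.10. In C2C12-W4-08 the same correction gave 0.16 and 0.09, a difference of 0.07. With no detection rule, an undetected spot takes the lowest detected signal of its array, so that Chrne rests on the array limits. Chrng then exceeded Chrne by 3.21 in the differentiating culture and by 0.52 in the Wnt4 clone, where they were at -0.29 and -0.81. Under 4 other settings the limit calculated for Chrne in the Wnt4 clone lay above the ratio of Chrng. With the local background subtracted, this limit was 2.53 and Chrng was at 0.65 on the log2 scale. The limit is not a bound on Chrne, because it rests on the lowest subtracted signal of any probe called detected in C2C12-PR. The Chrne spot read 22 over a local background of 14 scanner units in the proliferating parent, and 8 over 4 in the Wnt4 clone. Before scaling, Chrne thus exceeded its local background by less in the Wnt4 clone. With the spot mean and detection by the spot median, a setting chosen after seeing the data, the limit was 0.64 and Chrng -0.30. For the same reason that limit is not a bound on Chrne. In the deposited table the limit and the ratio of Chrng were 0.81 and -0.37 with scaling and 1.37 and 0.19 without. Here the limit rests on the lowest listed signal of any probe in C2C12-PR, where Chrne was empty. It also rests on the Chrne spot of 8 scanner units in the Wnt4 clone. The background behind that table is not given, so whether the limit bounds Chrne could not be settled.

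**Figure D2:**
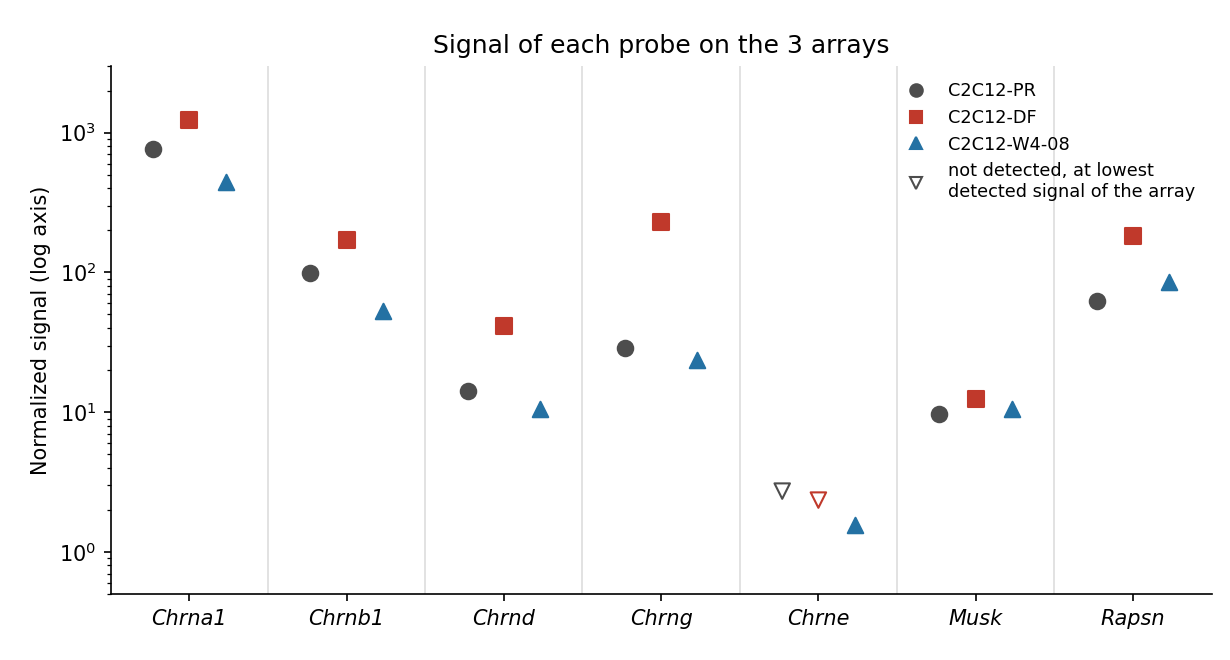
Normalized signal of each of the 7 probes on the 3 arrays, on a log axis, with 1 point for each array. Open triangles mark Chrne where it was not detected, placed at the lowest detected signal of the array as an upper limit. In C2C12-DF Chrng stood at 229.8, against 28.7 and 23.5 on the other arrays.

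The subunits common to both receptor forms had smaller ratios than Chrng. Chrna1, which carries most of the acetylcholine binding site, had signals of 761 in the proliferating parent, 1223 in the differentiating culture and 446 in the Wnt4 clone. The log2 ratio was 0.68 in the differentiating culture, 1.61-fold, and -0.77 in the Wnt4 clone, each beyond the SD of the control spots. The median of 1 of the controls in the Wnt4 clone, -0.75, was as low as that ratio. Chrnb1, the beta subunit gene, had signals of 99.7, 171 and 52.8 in the same order of arrays. Its log2 ratios of 0.78 and -0.92 were close to those of Chrna1, and both genes were highest in the differentiating culture and lowest in the Wnt4 clone. Neither reached 2-fold in either comparison. Local background around the Chrna1 spot was 104, 621 and 262 scanner units, and around the Chrnb1 spot 103, 180 and 77. With it subtracted, Chrnb1 in the Wnt4 clone moved to -1.14.

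Chrnd, the delta subunit gene, passed 2-fold in the differentiating culture on spots of 55 and 109 scanner units. Its signals were 14.3 in the proliferating parent, 41.6 in the differentiating culture and 10.6 in the Wnt4 clone. The log2 ratio in the differentiating culture was 1.54, 2.92-fold, with a range of 1.25 to 1.88 for 2 SD of the blanks. In C2C12-W4-08 it was -0.43, with a range of -0.75 to -0.07. In size that was below the largest control spot SD of 0.519 but above the others of 0.175 and 0.245. Under the normexp correction the C2C12-DF ratio of Chrnd was 0.78 and no longer reached 2-fold.

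Among the assembly genes, Rapsn was higher in differentiation medium and Musk had ratios close to 1. Rapsn had signals of 62.1 in the proliferating parent, 182 in the differentiating culture and 85.1 in the Wnt4 clone. Its log2 ratio was 1.55 in the differentiating culture, 2.93-fold, and 0.45 in the Wnt4 clone, the highest of the 6 measured genes there. The ratio in the Wnt4 clone was within the largest control spot SD of 0.519 but beyond the others of 0.175 and 0.245. Musk had signals of 9.74, 12.4 and 10.6. Its log2 ratios of 0.35 and 0.12 had ranges of -0.22 to 0.98 and -0.30 to 0.63 for 2 SD of the blanks, both of which include no change.

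Of the 6 genes with a ratio, 3 were at least 2-fold higher in the differentiating culture (Chrng, Rapsn and Chrnd) and 0 lower, and all 6 had a log2 ratio above 0, with a median of 1.16. Over the whole of these arrays, 4.91% of the probes with a ratio were 2-fold or more higher and 4.54% lower, with a median of 0 that the scaling sets. The 6 ratios exceeded between 75.6% and 99.7% of all those probes. In C2C12-W4-08, 0 of 6 genes were at least 2-fold higher and 0 lower, and 2 had a log2 ratio above 0, with a median of -0.36. There the share of all 16682 probes was 8.55% higher and 11% lower. The 6 ratios exceeded between 12.5% and 73.6% of these probes.

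**Figure D3:**
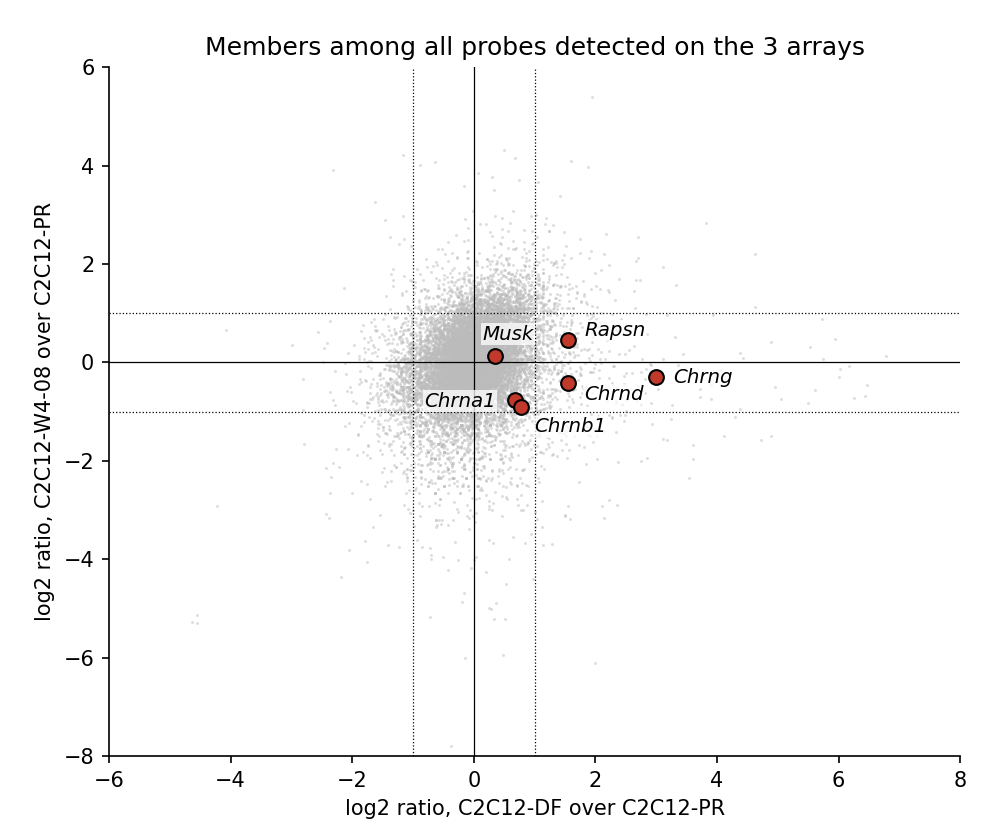
Log2 ratio to C2C12-PR in C2C12-DF (horizontal axis) and in C2C12-W4-08 (vertical axis) for all probes detected on the 3 arrays (grey) and for the 6 genes with a ratio (red). Dotted lines mark 2-fold, and both axes share the C2C12-PR array. Chrng, Rapsn and Chrnd lay right of the 2-fold line, and none of the 6 passed it in C2C12-W4-08.

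Chrng had a higher ratio than the 5 other measured members in the differentiating culture. Its log2 ratio was 1.45 above that of Rapsn, 1.46 above Chrnd, 2.22 above Chrnb1, 2.32 above Chrna1 and 2.65 above Musk. Against Chrna1 this difference ranged from 1.85 to 2.96 over 11 alternative settings. Scaling to the 75th percentile, no detection rule and the minimum signal of 20 cannot move it, and each gave 2.32 as reported. The deposited table gave the same 2.24 with and without scaling. In C2C12-W4-08 the same differences were -0.74, 0.14, 0.63, 0.49 and -0.41. Set directly against each other, C2C12-DF exceeded C2C12-W4-08 by 9.76-fold for Chrng, 3.92-fold for Chrnd, 3.24-fold for Chrnb1, 2.74-fold for Chrna1, 2.14-fold for Rapsn and 1.17-fold for Musk. The differentiating culture was thus the highest of the conditions for each of the 6 genes, but for Musk the Wnt4 clone was higher with the 75th percentile (0.68 against 0.39) and in the unscaled table (0.45 against 0.31).

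Ratios in the differentiating culture were above 0 for all 6 genes under every alternative that gave one. Chrng ran from 2.17 to 3.63, Rapsn from 1.35 to 2.02, Chrnd from 0.78 to 1.72, Chrnb1 from 0.43 to 0.96, Chrna1 from 0.32 to 0.87 and Musk from 0.01 to 0.39. In C2C12-W4-08 the sign held for Chrna1 (-1.17 to -0.21) and Chrnb1 (-1.14 to -0.34) under 13 alternatives and for Rapsn (0.12 to 1.02) under 12. It turned for Chrng in 5 of 12 (-0.37 to 0.65), for Chrnd in 2 of 11 (-0.81 to 0.13), and for Musk, which was above 0 in 5 of 11 (-0.37 to 0.68). These counts include the mean over the probes of a gene, no detection rule and, where it gave a value, the minimum signal of 20. Those alternatives cannot change a ratio of these genes, because each had 1 probe and was detected on both arrays. Scaling to the 75th percentile moved the median of all probes in the Wnt4 clone by 0.56 and that in the differentiating culture by 0.05. Relative to that median the clone's ratios were those of the reported scaling.

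**Figure D4:**
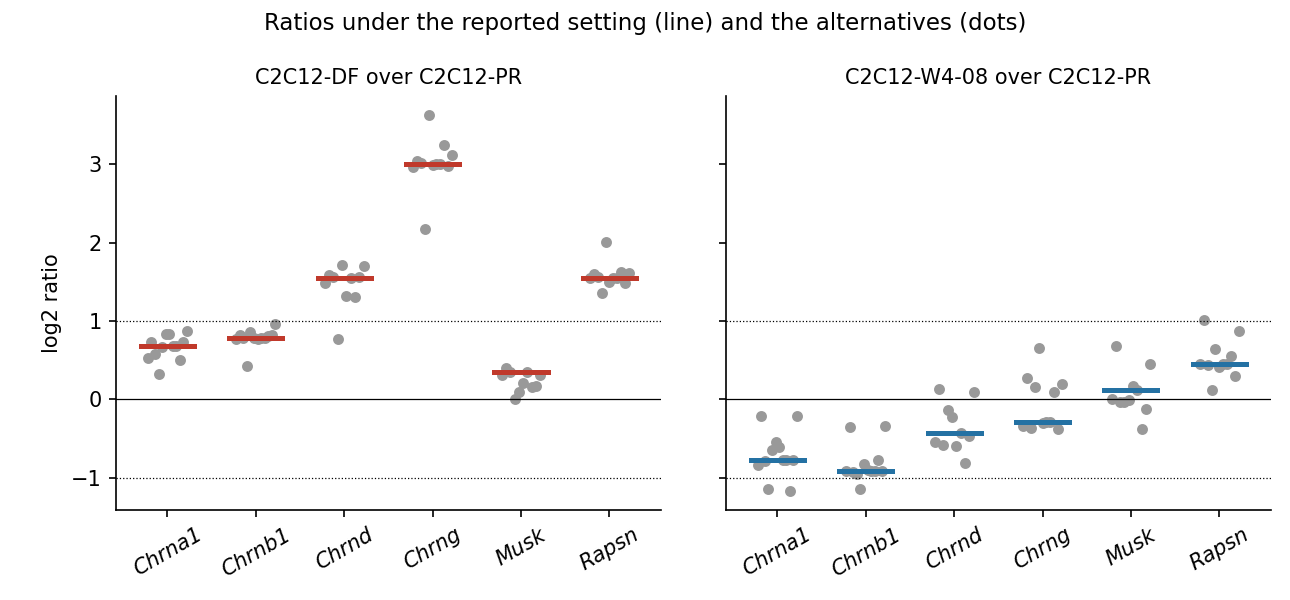
Log2 ratio to C2C12-PR of the 6 genes with a ratio, in C2C12-DF (left) and C2C12-W4-08 (right). Thick lines are the reported setting, grey dots the alternatives in which the probe was detected on both arrays, and dotted lines 2-fold. In C2C12-DF all dots lie above 0, and in C2C12-W4-08 those of Chrnd, Chrng and Musk fall on both sides.

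Genes that act with the receptor were read from 6 lists of 65 genes in all, of which 63 had a probe. Of those with a ratio, 5 of 47 were at least 2-fold higher in the differentiating culture and 0 lower, and in the Wnt4 clone 5 of 49 were higher and 8 lower, beside 4.91% and 4.54% of all probes in the first comparison and 8.55% and 11% in the second. Among 15 organizers and signals of the synapse in the differentiating culture, 2 were higher and 0 lower, with a median log2 ratio of 0.10. Lrp4, the agrin co-receptor, was one of them, with signals of 17.6 in the proliferating parent, 124 in the differentiating culture and 11.5 in the Wnt4 clone. Its log2 ratios were 2.82 and -0.62, close to those of Chrng, but under the normexp correction it was at 1.18 in the differentiating culture. Pdzrn3, a ubiquitin ligase that binds Musk, was the other, at 1.93 and at 0.58 under the normexp correction, and was named after its value was seen. Dok7, the adaptor that activates Musk from inside the cell, was not detected in the proliferating parent and had a signal of 5.55 in the differentiating culture, at least 2.04-fold higher. Nrg1, the neuregulin gene, was the reverse, with a signal of 4.79 in the proliferating parent and none detected in the differentiating culture, also a bound of 2.04-fold. Under the normexp correction the log2 ratios of Dok7 and Nrg1 in the differentiating culture were 0.27 and -0.27, below 2-fold. Agrn had signals of 13.9, 18.3 and 30 and a log2 ratio of 0.40 in the differentiating culture. In C2C12-W4-08 its ratio was 1.11, but 0.90 with the print blocks centred and 0.24 under the normexp correction. Of 16 organizers there, 1 was higher and 2 lower, the last being Pak1, a kinase downstream of Musk, at -1.06, and Dvl1, a Wnt pathway protein that binds Musk, at -1.08. With the print blocks centred these were -0.96 and -0.49, and Dvl1 was -0.36 under the normexp correction.

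The matrix, enzyme and scaffold genes had a higher median ratio in the differentiating culture than in the Wnt4 clone. In C2C12-DF 2 of 13 were higher and 0 lower, with a median log2 ratio of 0.31, beside 4.91% and 4.54% of all probes. In the Wnt4 clone 1 of 14 was higher and 4 lower, with a median of -0.66, beside 8.55% and 11% of all probes. Nid2, a basement membrane nidogen of the synapse, had signals of 56.4 in the proliferating parent, 313 in the differentiating culture and 24.8 in the Wnt4 clone, log2 ratios of 2.47 and -1.18, the latter -0.65 under the normexp correction. Ncam1, an adhesion molecule of myotubes and synapses, was at 2.10 in the differentiating culture and -0.46 in the Wnt4 clone, and at 0.57 in the differentiating culture under the normexp correction. Lamb2, the laminin chain of the synaptic cleft, had signals of 202, 328 and 71.4, and Dag1, the dystroglycan gene, signals of 143, 282 and 70.9. The log2 ratios in the Wnt4 clone were -1.50 and -1.01, and those in the differentiating culture 0.70 and 0.98. Ache, the acetylcholinesterase gene, was at the lowest detected signal in the proliferating parent (2.72) and in the Wnt4 clone (0.70) and was not detected in the differentiating culture, so that its ratio of -1.97 in the Wnt4 clone is that of the array limits. It is counted among the 4 lower genes of this list and the 8 of all lists. Utrn, the utrophin gene, had log2 ratios of -0.12 and 0.49. The gene of this list at least 2-fold higher in the Wnt4 clone was Sntb1, a syntrophin, at 1.07 and at 0.17 under the normexp correction, named after its value was seen.

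Of the transcription regulators of receptor genes, 1 of 9 was higher in the differentiating culture and 0 lower, beside 4.91% and 4.54% of all probes. In the Wnt4 clone 0 were higher and 1 of 9 lower, beside 8.55% and 11% of all probes. Myog, the myogenin gene, had signals of 46.5 in the proliferating parent, 961 in the differentiating culture and 23.96 in the Wnt4 clone. Its log2 ratios were 4.37 and -0.95, with the signs that Chrng, Chrnd, Chrna1 and Chrnb1 had, of which those of Chrng and Chrnd in the Wnt4 clone turned under some alternatives. Myod1 had signals of 207, 184 and 74.4, a log2 ratio of -0.17 in the differentiating culture and -1.47 in the Wnt4 clone. Gabpa, the Ets factor of the N-box, was at 0.25 and 0.14.

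**Figure D5:**
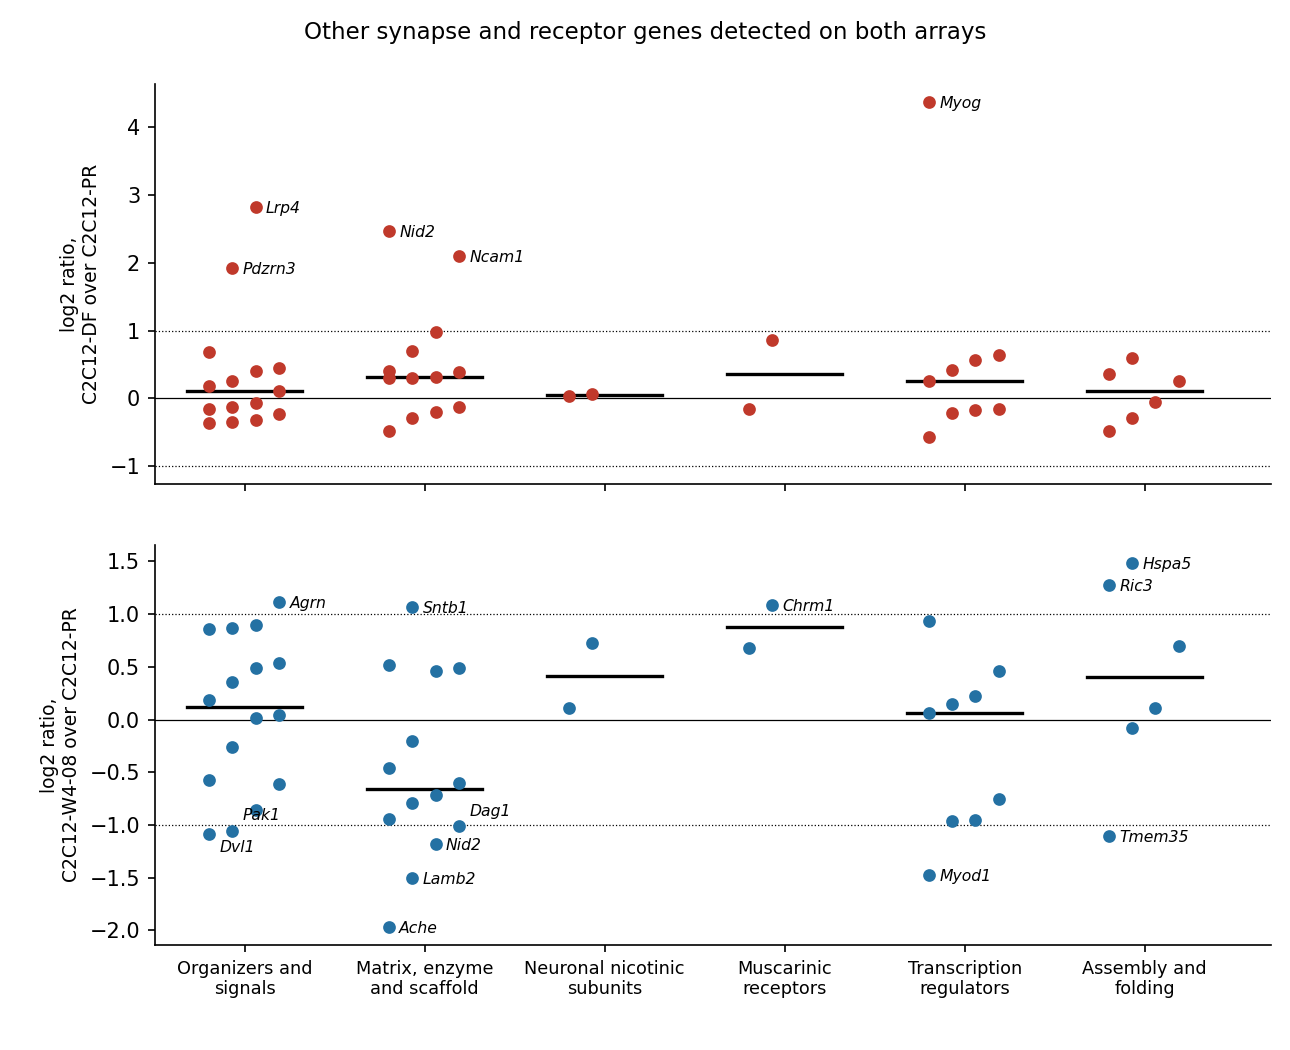
Log2 ratio to C2C12-PR of each gene of the 6 lists that was detected on both arrays, in C2C12-DF (top) and C2C12-W4-08 (bottom). Points are genes, thick bars list medians and dotted lines 2-fold, and genes past 2-fold are named. Myog at 4.37 and Lrp4 at 2.82 were the highest in C2C12-DF.

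The summed signal of the 5 myoblast or muscle markers was 2355 in the proliferating parent, 4342 in the differentiating culture and 1220 in the Wnt4 clone, the same order of arrays as for Chrna1. Des, Cdh15 and Myog followed that order, whereas Myod1 was highest in the proliferating parent and Myf5 in the Wnt4 clone, with signals of 60.9, 81.8 and 117. Markers of 3 other cell types summed to 606, 294 and 93.1 for 5 neuronal genes, 55.9, 66.9 and 84.7 for 4 Schwann cell genes, and 1197, 1797 and 736 for 4 fibroblast genes. Such sums are weighted to the brightest probes. Most of the fibroblast sum was Col1a2, with signals of 990, 1550 and 715. Col1a1 had 203, 233 and 10.6, and Pdgfra 4.79, 14.7 and 9.31. All 4 Schwann cell genes were detected on each array, 4, 5 and 5 of the neuronal genes and 3, 3 and 4 of the fibroblast genes. Syp was not detected in the proliferating parent, and Thy1 was not detected in the proliferating parent or C2C12-DF. Markers of cartilage and bone summed to 54.1, 30.3 and 37.2 over 3 genes with a probe. The part of these markers in the receptor ratios was not tested.

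The genes nearest to Chrna1 over the 3 arrays were Mef2a, Uqcrh, Pcolce, 9030619P08Rik and Ccdc80, out of 2982 bright named genes, with distances of 0.02 to 0.10 between their log2 ratios. Mef2a, a muscle transcription factor, had signals of 75.7, 123 and 44.6. Among the nearest to Chrng, in a search added after its values were seen, were Lrp4, Map1lc3a, Casp4 and Tnnt2, at distances of 0.37 to 0.64. Tnnt2, a troponin of the sarcomere, had signals of 499 in the proliferating parent, 4802 in the differentiating culture and 274 in the Wnt4 clone. These distances rest on 3 arrays and are descriptions.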

How the data were processed

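Total RNA of 3 cultures, labelled with Cy5, was hybridized to one-colour mouse oligonucleotide arrays, 1 for each condition. The deposited scanner intensities give each spot and its local background with nothing subtracted. A second deposited file holds signals that the authors had corrected for background and scaled, and its exact background is not given in the sources used here. The methods name Isogen for the extraction and the labels name the miRNeasy kit.

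From the spot medians the blank mean was subtracted, and each array was divided by its median ratio to C2C12-PR over probes detected on both, with C2C12-PR at a median of 25. A total of 1 flagged probe was left out. A probe detected on 1 array only had its ratio bounded by the lowest detected signal of the other. Distances between genes are Euclidean, over both log2 ratios, among named probes detected on all arrays with a signal of at least 100 on 1. One scanner unit was worth 0.413 (C2C12-PR), 0.457 (C2C12-DF) and 0.431 (C2C12-W4-08) of signal. The number of arrays limits the precision.

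The members and lists were chosen with earlier results of these data known. The text names the members, list genes at least 2-fold changed with a signal of at least 100 on 1 array, and Agrn, Lrp4, Dok7, Ache, Utrn and Myog. Other names were added after their values were seen. One gene that the search for likeness to Chrng found is not reported here. Dok7 was found by its older name A930013K19Rik. Python 3.11.15, numpy 2.4.6, pandas 2.3.3 and limma 3.58.1 in R 4.3.3 were used. On simulated arrays of 23473 probes, a 3-fold change passed 2-fold at 64 of 66 probes in the C2C12-DF simulation and at 63 of 67 in that of C2C12-W4-08, and of unchanged probes 149 of 15978 and 189 of 16675 did so. These counts cover only probes detected on both simulated arrays. Apart from the blank spread, the simulated noise had the same size on every array. It did not carry the control spot SD of up to 0.519 of the C2C12-W4-08 array, so the counts are not an error rate for the real arrays. Alternatives were other scalings, background corrections, spot summaries, detection rules, print block centring, the deposited table and other marks of size.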

Additional observations from a re-analysis of the deposited data

Results flagged for a closer look

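The ratios of Chrna1 and Chrnb1 to C2C12-PR ran in opposite directions in the 2 comparisons. For Chrna1 the log2 ratio was 0.68 in the differentiating culture and -0.77 in the Wnt4 clone, a difference of 1.46. For Chrnb1 it was 0.78 and -0.92, a difference of 1.70. Both ratios of a gene share the C2C12-PR array, each condition had 1 array, and the difference was not tested.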

How the results depend on the processing

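The arrays had 1 sample for each condition, so no replicate could be left out. No paired analysis was possible because each condition had 1 array. No ratio of the 6 measured genes in the differentiating culture turned its sign. In that comparison the number of the 7 genes at least 2-fold higher, 3 as reported, was 2 under normexp and with a minimum signal of 20, each without Chrnd, 0 with the spot mean, 5 at 1.5-fold and 1 at 4-fold. With the spot mean only 2 of these genes were detected on both arrays, because the blank spots of C2C12-PR then had an SD of 86.3 scanner units. A variant with detection by the spot median, chosen after seeing the data, gave Chrng 2.99. In the Wnt4 clone the number higher, 0 as reported, was 1 with the 75th percentile (Rapsn), and the number lower, 0 as reported, was 1 under normexp (Chrna1), local background (Chrnb1) and print block centring (Chrna1), and 2 at 1.5-fold. For Chrng minus Chrne the reported setting gave no value.

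For the 6 lists the number higher in the differentiating culture, 5 as reported, was 3 under normexp and with a minimum signal of 20, 1 with the spot mean and 11 at 1.5-fold. The number lower, 0 as reported, was 1 under normexp, with no detection rule and in the scaled deposited table, and 2 with local background. In the Wnt4 clone the number higher, 5 as reported, was 18 with the 75th percentile and in the unscaled table, 8 in the scaled table, 3 under loess, local background and print block centring, 2 with a minimum signal of 20, 1 with the spot mean, 0 under normexp, 12 at 1.5-fold and 0 at 4-fold. The number lower there, 8 as reported, was 1 with the 75th percentile, 4 under normexp, 13 with local background, 2 with the spot mean, 17 with no detection rule, 0 in the unscaled table, 17 at 1.5-fold and 0 at 4-fold. With no detection rule, a probe detected on neither array takes the lowest detected signals, 2.72 in C2C12-PR and 0.70 in C2C12-W4-08. It then counts as lower in the Wnt4 clone from the array limits alone. Such probes enter the 17 with no detection rule and the share for that setting below. Of all probes past 2-fold in the Wnt4 clone, 43.6% were higher as reported, 85.3% with the 75th percentile, 85.1% in the unscaled table, 23.3% with no detection rule and 13.9% under normexp. In the differentiating culture these shares were 52.0%, 58.2%, 70.5%, 53.0% and 27.3%. The unscaled table moved the median of all probes by 0.14 and 0.57. Signal over background limits Chrne, Musk and Chrnd.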

Other observations

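Among the genes that help fold and assemble receptors, 0 of 6 were past 2-fold in the differentiating culture, with a median log2 ratio of 0.11. In the Wnt4 clone 2 of 6 were higher and 1 lower, with a median of 0.40. Of all probes with a ratio, 4.91% were higher and 4.54% lower in the first comparison, and 8.55% and 11% in the second. Hspa5, the endoplasmic reticulum chaperone BiP, had signals of 2187 in the proliferating parent, 1797 in the differentiating culture and 6132 in the Wnt4 clone, log2 ratios of -0.28 and 1.49, the latter 0.71 under the normexp correction. Ric3, a chaperone of nicotinic receptors, had signals of 27.9, 42.1 and 67.5, and its log2 ratio in the Wnt4 clone was 1.28, or 0.84 with the print blocks centred and 0.27 under normexp. Tmem35, another nicotinic receptor chaperone, was at -1.10 in the Wnt4 clone, on signals of 5.20 and 2.42, and at -0.11 under normexp. Canx, the calnexin gene, was at 0.26 in the differentiating culture and 0.11 in the Wnt4 clone.

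Neuronal nicotinic subunits were often below the detection limit. Of 10 with a probe, 3 were detected in the proliferating parent, 5 in the differentiating culture and 7 in the Wnt4 clone, and their summed signals were 19.7, 26.8 and 36.3. Chrna2 had signals of 13.4, 13.8 and 14.5. Chrnb2 and Chrnb4 were detected in the Wnt4 clone and not in the proliferating parent, with bounds of at least 2.31-fold and 2.15-fold higher. Under the normexp correction their log2 ratios in the Wnt4 clone were 0.04 and 0.12. Chrna5 was detected in the proliferating parent at 2.72 and not in the Wnt4 clone, at least 3.91-fold lower, which is the ratio of the array limits. Of 4 muscarinic receptor genes with a probe, 2 were detected in the proliferating parent, and Chrm1 had signals of 4.79, 8.74 and 10.2. The lower detection limit of the C2C12-W4-08 array, 5.99 scanner units against 26.3 in the proliferating parent, moves with these counts of detected genes, and its part in them was not tested.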
